A study of Mus musculus with 14 samples.

Results

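MyoD occupancy was compared between C2C12 cells depleted of the long noncoding RNA Myolinc and control C2C12 cells, using the lists of MyoD peaks deposited for chromatin immunoprecipitation followed by sequencing (ChIP-seq). The members were all peaks of these lists outside the mitochondrial genome, 109522 in the siMyolinc library and 71878 in the control library. Together they made up 181400 of the 517016 such peaks in the 10 libraries of the series that had a list. C2C12 is an established line of mouse myoblasts that fuses into myotubes in low serum. The siMyolinc cells had been transfected with a small interfering RNA (siRNA) against Myolinc at 10 nM, and all cells were fixed after 2 days of differentiation and precipitated with 10 µg of antibody. The labels do not say whether control cells received a control siRNA or none, nor which IgG library each list was called against. Each condition was 1 library, so no difference below has a replicate check. The knockdown itself was not checked here, since ChIP-seq does not measure the transcript. Peak lists check no cell type.

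MyoD is a basic helix-loop-helix transcription factor that drives skeletal muscle differentiation. It pairs with E proteins such as the product of Tcf12 and binds the E-box, a short palindromic DNA word, at promoters and enhancers of genes for contraction, the neuromuscular junction and cell cycle exit. Myolinc is transcribed beside Filip1, which encodes a filamin-interacting protein, and the series asked what its loss does to binding of muscle regulators at muscle genes.

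Sequences are printed for promoters at which the peak centres of both libraries lay close together. How often unrelated centres in 1 promoter lie this close was not computed, so closeness does not establish a shared site. Of 131 protein-coding genes with a promoter peak in both lists, 22 had peak centres within 100 bp of each other, and for 7 of the 22 a promoter window in RefSeq (build GRCm38.p6) held both centres. A window runs from 250 bases before to 50 bases after a transcription start. The first 4, ordered by the worse of their percentile ranks in the lists, are printed 5′ to 3′ on the gene's strand, with the bases inside the siMyolinc peak in capitals. They are Yipf6 (chrX:98937531-98937830 on the plus strand), Crk (chr11:75679009-75679308 on the plus strand), Treh (chr9:44672983-44673282 on the plus strand) and Filip1 (chr9:79977833-79978132 on the minus strand).
Yipf6: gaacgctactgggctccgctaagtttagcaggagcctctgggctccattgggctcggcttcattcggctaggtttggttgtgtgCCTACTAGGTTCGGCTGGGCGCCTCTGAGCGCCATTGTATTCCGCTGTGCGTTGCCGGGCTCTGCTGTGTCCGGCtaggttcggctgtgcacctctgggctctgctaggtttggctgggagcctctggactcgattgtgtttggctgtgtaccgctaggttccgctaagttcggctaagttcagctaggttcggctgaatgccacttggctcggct
Crk: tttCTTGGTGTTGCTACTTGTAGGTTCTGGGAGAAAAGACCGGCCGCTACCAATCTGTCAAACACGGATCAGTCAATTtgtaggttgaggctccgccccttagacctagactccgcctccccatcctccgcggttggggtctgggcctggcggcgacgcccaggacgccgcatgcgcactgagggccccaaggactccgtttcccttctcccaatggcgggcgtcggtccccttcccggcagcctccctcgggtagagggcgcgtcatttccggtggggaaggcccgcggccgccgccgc
Treh: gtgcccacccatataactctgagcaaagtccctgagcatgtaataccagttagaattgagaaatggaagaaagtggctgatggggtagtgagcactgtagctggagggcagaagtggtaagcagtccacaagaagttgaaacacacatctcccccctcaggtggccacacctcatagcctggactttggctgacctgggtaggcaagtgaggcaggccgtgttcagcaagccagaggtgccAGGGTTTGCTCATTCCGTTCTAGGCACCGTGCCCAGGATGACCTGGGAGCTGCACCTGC
Filip1: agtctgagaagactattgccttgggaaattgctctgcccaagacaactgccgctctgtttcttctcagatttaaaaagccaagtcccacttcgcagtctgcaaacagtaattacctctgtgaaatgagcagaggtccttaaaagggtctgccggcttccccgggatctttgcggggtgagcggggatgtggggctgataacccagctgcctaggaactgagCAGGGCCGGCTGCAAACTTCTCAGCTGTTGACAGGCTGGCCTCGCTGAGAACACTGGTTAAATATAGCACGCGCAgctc
The Filip1 window held the word CAGCTG, the E-box core that MyoD prefers, at 2 places, 1 of them inside the siMyolinc peak. The Yipf6, Crk and Treh windows held it at 0 places. The looser E-box CANNTG, which includes CAGCTG, occurred at 1 place in the Yipf6 window, 0 in the Crk window, 3 in the Treh window and 3 in the Filip1 window. Both words are palindromes, so each search covered both strands. A match describes these letters only.

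The siMyolinc list differed from the control list in the form of its peaks. The median peak was 75 bp wide in the siMyolinc list and 231 bp in the control list, and nearly every peak had exactly that width. The siMyolinc peaks covered 8.21 Mb and the control peaks 16.6 Mb. Peak scores are values of the authors and were ranked within 1 list. All scores below the highest 1% were multiples of a step, 3.02 in the siMyolinc list and 2.96 in the control list, read here as the worth of 1 sequence tag. On that reading the median peak held 24 tags in the siMyolinc library and 8 in the control library. Tags of both libraries are printed side by side below, and this offset between the lists was not removed from them. They therefore do not measure a change of binding at a site. Between the lower and the upper quartile, peaks held 16 to 32 tags in the siMyolinc library and 7 to 10 in the control library. The largest peak held 317 tags in the siMyolinc library and 80 in the control library. If scores were scaled to 10000000 tags, the libraries held 3312039 tags in siMyolinc cells and 3378119 in control cells. On the same scaling, 81.4% of siMyolinc tags and 18.8% of control tags lay in peaks. The narrow width was shared with 1 other list of the series, Myogenin after Myolinc depletion, also at 75 bp, against 217 to 249 bp in the other lists. All comparisons of place therefore used peak centres, and the part that width and the share of tags in peaks played in the differences was not tested.

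MyoD peaks of siMyolinc cells lay at promoters and exons more often than MyoD peaks of control cells. The class promoter-TSS, assigned by the authors' annotation around a transcription start, held 2.69% of siMyolinc peaks (95% interval 2.59% to 2.79%) and 1.43% of control peaks (1.35% to 1.52%). Exons held 3.68% of siMyolinc peaks and 1.85% of control peaks, a difference of 1.83 percentage points (1.69 to 1.98). First exons alone held 0.465% of siMyolinc and 0.164% of control peaks. Intergenic DNA held 49.7% of siMyolinc peaks and 54.2% of control peaks, a difference of -4.48 percentage points (-4.95 to -4.01). Introns took nearly equal shares, 40.8% in the siMyolinc list and 40.2% in the control list. Intervals of shares are Wilson or Newcombe intervals over counts of peaks. They cover counting error only and not the spread between libraries, since each condition was 1 library. The tag intervals given further on take tags as independent, which PCR copies of a fragment are not.

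The widest contrast among these classes was at CpG islands, GC-rich stretches common at the starts of broadly expressed genes. The annotation gave this label to intronic and intergenic peaks alone, so promoter peaks are not among them. It applied to 0.767% of siMyolinc peaks and 0.173% of control peaks, a ratio of 4.45. Of those peaks, 51.2% in the siMyolinc list and 47.6% in the control list lay within 1 kb of a transcription start. Interspersed repeats showed the opposite order. Any repeat class was named for 35.3% of siMyolinc and 37.6% of control peaks. LINE elements held 11.7% of siMyolinc and 12.2% of control peaks, LTR elements 10.1% of siMyolinc and 11.1% of control peaks, and SINE elements 9.68% of siMyolinc and 10.8% of control peaks. Over all peaks the small classes ran the other way, with simple repeats at 1.67% of siMyolinc and 1.20% of control peaks, satellites at 0.157% of siMyolinc and 0.107% of control peaks, and low-complexity DNA at 0.399% of siMyolinc and 0.359% of control peaks.

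When the siMyolinc list was cut to its 71878 highest-scoring peaks, the length of the control list, these contrasts narrowed at promoters and islands and held at exons. The promoter share was then 2.22% in the siMyolinc list against 1.43% in the control list. CpG islands held 0.417% of siMyolinc against 0.173% of control peaks. Exons held 3.78% of siMyolinc against 1.85% of control peaks, slightly above the value over all siMyolinc peaks. Simple repeats turned round, with 0.723% of siMyolinc against 1.20% of control peaks at equal length and 1.67% against 1.20% over all peaks.

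**Figure D1:**
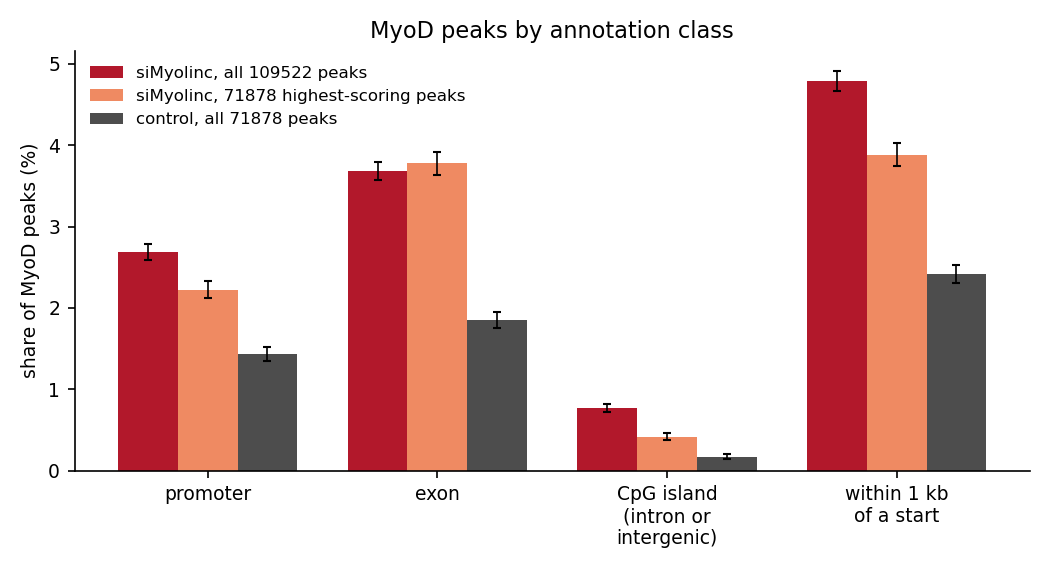
Share of MyoD peaks in 4 classes (percent, vertical axis) for all siMyolinc peaks, the 71878 highest-scoring siMyolinc peaks and all control peaks; bars are shares of 1 library and whiskers are 95% Wilson intervals. The promoter, CpG island and near-start bars step down in that order, with 2.69%, 2.22% and 1.43% at promoters, whereas the exon bars of siMyolinc cells stay at 3.68% and 3.78%.

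siMyolinc peaks gathered around the transcription start. In the 500 bp before a start lay 1.37% of siMyolinc peaks and 0.657% of control peaks. In the 500 bp after it lay 1.70% of siMyolinc peaks and 0.602% of control peaks. From 4.5 to 5 kb upstream, by contrast, the bins held 0.410% of siMyolinc and 0.433% of control peaks. From 4.5 to 5 kb downstream they held 0.590% of siMyolinc and 0.527% of control peaks. The siMyolinc share was the higher in every downstream bin. The siMyolinc list had a crest at the start, and the control bins lay between 0.433% and 0.657% over the same 10 kb. Within 100 bp of a start were 0.803% of siMyolinc and 0.312% of control peaks, within 1 kb 4.79% of siMyolinc and 2.42% of control peaks, and within 10 kb 22.9% of siMyolinc and 18.5% of control peaks. At the highest scores the order nearest the start was not kept. Within 100 bp lay 0.30% of siMyolinc and 0.34% of control peaks among the 10000 highest-scoring of each list, a difference whose interval included 0, and 0 siMyolinc and 6 control peaks among the 1000 highest. Beyond 100 kb lay 28.1% of siMyolinc and 32.9% of control peaks. The median distance to the nearest start was 37585 bp for siMyolinc peaks and 47652 bp for control peaks.

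**Figure D2:**
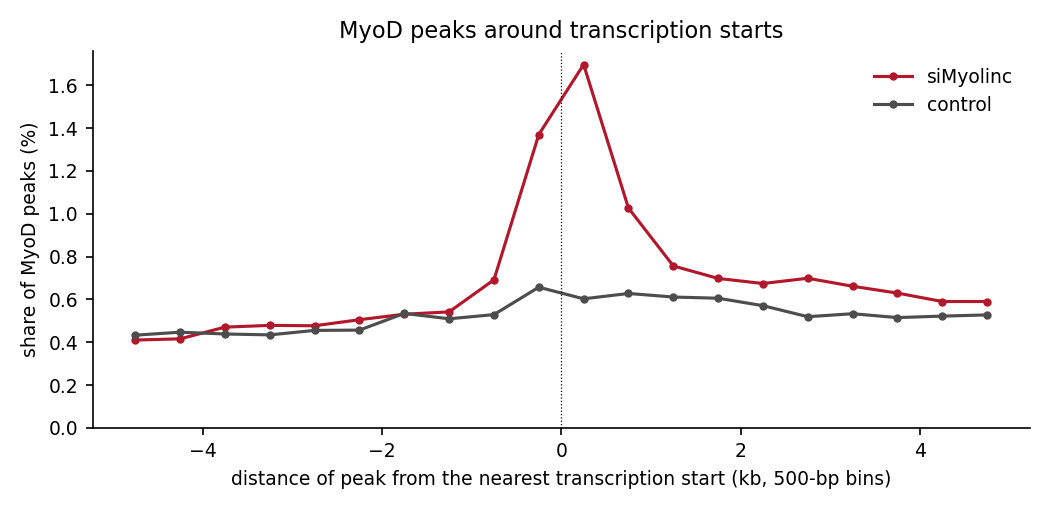
Share of MyoD peaks (percent, vertical axis) in 500-bp bins of signed distance to the nearest transcription start (kb, horizontal axis; negative values are upstream) for the siMyolinc and control libraries. The siMyolinc line crests at 1.70% just downstream of the start and the control line at 0.657% just upstream of it.

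The promoter and CpG island shares of siMyolinc peaks varied with score more than those of control peaks. Each list was split into 4 equal parts by score. From the highest to the lowest part, promoters held 1.88%, 2.21%, 2.89% and 3.78% of siMyolinc peaks, and 1.5%, 1.31%, 1.46% and 1.45% of control peaks. CpG islands held 0.245%, 0.427%, 0.774% and 1.62% of siMyolinc peaks, against 0.156%, 0.150%, 0.178% and 0.206% of control peaks. Promoter and island peaks were thus most frequent among the weakest siMyolinc peaks, those of 4 to 16 tags. The exon share showed no such slope, at 3.62%, 3.81%, 3.85% and 3.46% in the siMyolinc list, against 2.08%, 1.80%, 1.78% and 1.73% in the control list. Repeats held more of the low-scoring peaks in both lists, 32.2% in the highest and 39.5% in the lowest part of the siMyolinc list, against 35.7% and 39.7% in the control list. Intergenic DNA held 49.2% and 50.1% of siMyolinc peaks in these parts, against 53.1% and 55.0% of control peaks. Among the 10000 highest-scoring peaks of each list, promoters held 1.73% of siMyolinc and 1.45% of control peaks, a difference of 0.28 percentage points whose interval (-0.07 to 0.63) included 0. Islands held 0.14% of siMyolinc and 0.13% of control peaks there, and exons 3.77% of siMyolinc and 2.01% of control peaks. For the 1000 highest-scoring peaks the promoter shares were 1.5% in siMyolinc and 1.6% in control cells, and the exon shares 5.70% in siMyolinc and 2.40% in control cells.

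**Figure D3:**
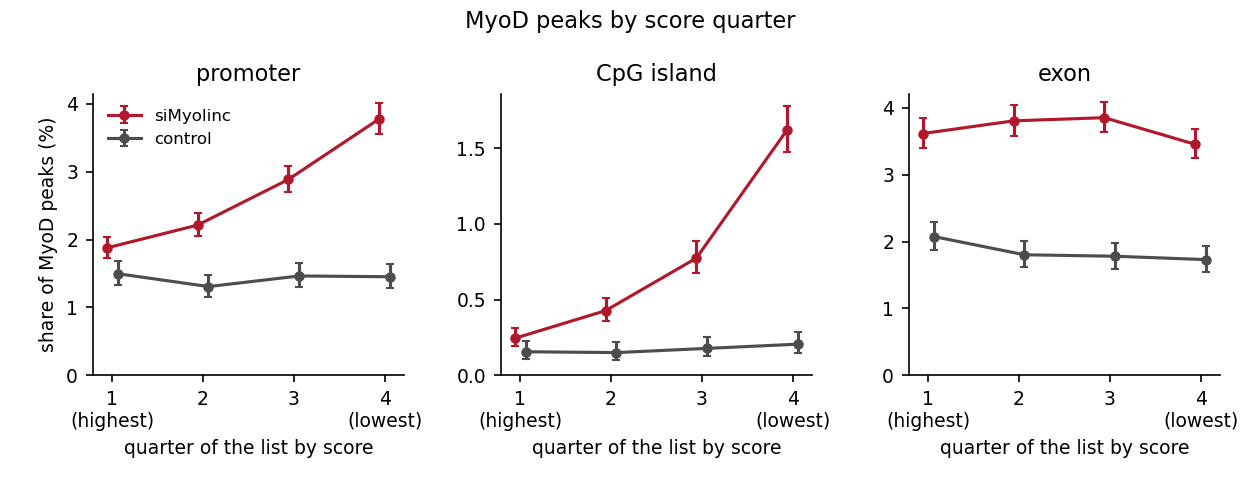
Share of MyoD peaks at promoters, CpG islands and exons (percent, vertical axes) in the 4 parts of each list by score, highest at the left, with 95% Wilson intervals, for the siMyolinc and control libraries. The siMyolinc promoter and island shares climb towards low scores, to 3.78% and 1.62%, while the control shares lie between 1.31% and 1.5% and between 0.150% and 0.206%.

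The control MyoD list resembled the control Myogenin list in these shares more than it resembled the siMyolinc MyoD list. Myogenin, a later myogenic factor, had 1.44% of its control peaks at promoters, 1.84% in exons and 0.226% in CpG islands. The siMyolinc Myogenin list had 3.1%, 6.25% and 1.09% in the same classes. The lists of RNA polymerase II phosphorylated at serine 2 and of TDP-43 had 3.76% and 6.93% of their siMyolinc peaks in exons, and between 18.8% and 25.6% of their control peaks. Each of these values is 1 library.

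MyoD peaks of both conditions were seldom at the same place. A siMyolinc centre lay within 100 bp of 863 control centres, 1.20% of the control list (1.12% to 1.28%) and 0.789% of the siMyolinc list when counted from its side. Distances between centres put that count in scale. Pairs of a siMyolinc and a control centre within 100 bp numbered 864, against 717 when the number of pairs 5 to 10 kb apart is scaled to the same span, a ratio of 1.21 (exact Poisson interval 1.13 to 1.29). From 1 distance bin to the next, pairs numbered 418 per 100 positions within 25 bp, 360 from 25 to 50 bp, 456 from 50 to 75 bp and 486 from 75 to 100 bp. They numbered 406 from 100 to 200 bp and 404 from 200 to 300 bp, so the raised count reached beyond the 100 bp taken as the same site. Beyond 5 kb they numbered between 350 and 362. At equal length the ratio was 1.23 (1.13 to 1.34). Among the 10000 highest-scoring peaks of each list it was 2.15 (1.35 to 3.26), from 22 pairs.

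**Figure D4:**
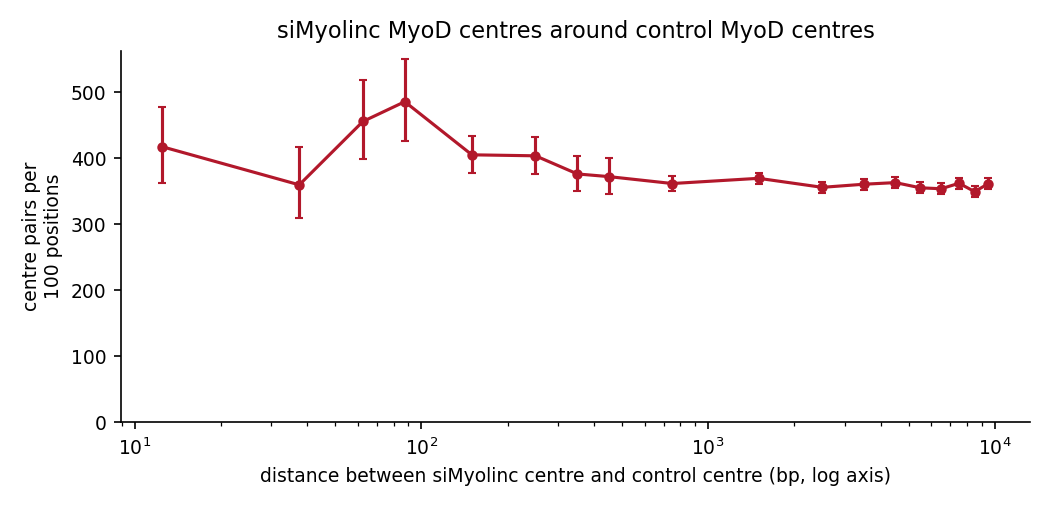
Pairs of a siMyolinc and a control MyoD centre per 100 positions of distance (vertical axis) by distance in bp (horizontal log axis), with exact 95% Poisson intervals. The points within 100 bp lie between 360 and 486 and the points beyond 5 kb between 350 and 362.

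The same ratio was higher with the RNA polymerase II and TDP-43 lists than between the MyoD lists. With siMyolinc polymerase peaks it was 1.73 for siMyolinc MyoD and 1.40 for control MyoD, and with siMyolinc TDP-43 peaks 2.33 for siMyolinc MyoD and 1.59 for control MyoD. With control polymerase peaks it was 4.49 for siMyolinc MyoD and 3.03 for control MyoD. With the TDP-43 control replicates it was 4.29, 4.86 and 4.73 for siMyolinc MyoD and 2.35, 3.13 and 3.49 for control MyoD. With control Myogenin peaks the ratios, 1.25 for siMyolinc MyoD and 1.27 for control MyoD, had intervals that overlapped that of the MyoD pair. With siMyolinc Myogenin peaks they were 1.97 for siMyolinc MyoD (1.80 to 2.16) and 1.11 for control MyoD (0.939 to 1.30). The ratio also moves with list length and with how far a factor's peaks gather in gene-rich DNA, so it is a description of these lists.

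The 863 control sites met by a siMyolinc centre sat in genes more often than control peaks at large. Exons held 5.79% of them (4.42% to 7.56%), against 1.85% of all control and 3.68% of all siMyolinc peaks. Promoters held 2.78%, against 1.43% of control and 2.69% of siMyolinc peaks. Intergenic DNA held 43.9%, against 54.2% of control and 49.7% of siMyolinc peaks. The sites were chosen for meeting a siMyolinc peak, so the comparison with control peaks is not independent of the siMyolinc list. They were no stronger than other peaks, with a median of 24 siMyolinc tags and 8 control tags, the medians of the whole lists. Tags in both libraries were nearly unrelated over these sites (Pearson r 0.08 and Spearman rho 0.07, over 863 sites that share their 2 libraries). Of the sites, 20 were in the highest 10% of both lists by score.

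The strongest common site outside repeats lay upstream of Csf2ra, a cytokine receptor gene, at chr19:61266943-61267017, -38562 bp from its start. It held 67 tags in siMyolinc cells (51.9 to 85.1) and 23 in control cells (14.6 to 34.5), with centres 16 bp apart. Havcr1, a cell surface receptor gene, followed, with 47 tags in siMyolinc and 20 in control cells in intron 1. Smoc1, which encodes a matrix calcium-binding protein, had 45 tags in siMyolinc and 17 in control cells in an intergenic site, and Ccl28, a chemokine gene, 44 siMyolinc and 14 control tags. An exon site named for Fam228a held 43 siMyolinc and 16 control tags. The 10 strongest such sites, ranked by the worse of their places in both lists, included none named for a gene of the muscle lists described below. Whether the lists of other antibodies had a peak at these sites was not examined, so they may not be particular to MyoD.

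Common sites were named for 3 of 68 genes of muscle structure, 2 of 20 of muscle energy and 3 of 51 on the regulator list, Filip1 among them. The neuronal list had 10 of 49, the most of the 12 lists. Beside these counts, the 863 sites carried 829 gene names, and all control peaks together 16545. A share over all protein-coding genes was not computed. Sites go to the nearest gene at any distance, 558526 bp from the start for the siMyolinc peak at Nlgn1 of the neuronal list. The part that distance and peaks per gene played in these counts was not tested. The ratio of near to far pairs over both lists was 1.21, so the single sites below need not mean shared occupancy. In intron 1 of Ckm, the muscle creatine kinase gene, centres 67 bp apart held 31 siMyolinc tags and 7 control tags, inside an LTR repeat. Dag1, the dystroglycan gene that links the cytoskeleton to the matrix, had 20 siMyolinc and 12 control tags in intron 1, 37 bp apart. Sgcd, the delta-sarcoglycan gene of the same complex, had 16 siMyolinc and 13 control tags in intron 3. Runx1, a transcription factor gene, had 20 siMyolinc and 7 control tags in intron 5, and Nfatc2, a calcineurin-dependent factor gene, 28 siMyolinc and 8 control tags in intron 3. Camk2b, a calmodulin kinase gene on the neuronal list, had centres 0 bp apart with 14 siMyolinc and 11 control tags in intron 2.

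At gene level, more promoters carried a MyoD peak in siMyolinc cells. A promoter peak named 2758 genes in the siMyolinc list and 1016 in the control list, and 142 in both. Those 142 were 5.15% of the siMyolinc genes and 14.0% of the control genes. The transcript behind the promoter class can differ from the gene named for the peak, so a peak may lie at a neighbouring promoter. Of 21900 protein-coding genes, 11.2% had a promoter peak in the siMyolinc library, 4.01% in the control library and 0.598% in both. At equal list length the siMyolinc share was 6.20% and the share in both lists 0.352%. With any peak within 10 kb of the start, 56.2% of protein-coding genes were named in the siMyolinc list, 39.6% in the control list and 26.7% in both, and at equal length the siMyolinc share was 42.6%.

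The promoters with the most siMyolinc tags and no control promoter peak were not those of muscle genes. Rab43, a small GTPase gene, led with 80 tags (63.4 to 99.6) at -358 bp from the start. Dfnb59, a gene needed for hearing, held 63 tags, Sfi1, a centrosomal protein gene, 60, and Xpo5, the exporter of microRNA precursors, 59. Dsg2, a desmosomal cadherin gene, Oc90, an inner-ear matrix gene, Fbxo5, which restrains the anaphase-promoting complex, and Wrb, a membrane-insertion receptor gene, held 57 to 59 siMyolinc tags. The control library had no promoter peak at these genes. Lists of other antibodies were not examined at these promoters.

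Promoters with a control peak and no siMyolinc promoter peak were led by Rars2, a mitochondrial tRNA synthetase gene, with 21 control tags (13.0 to 32.1). Tmem107, a ciliary protein gene, Vmn2r100, a vomeronasal receptor gene, and Clec12a, a lectin receptor gene, held 20 control tags each. Tuba4a, an alpha-tubulin gene, Olfr113, an olfactory receptor gene, 1700034E13Rik and Apip, a methionine-salvage gene, held 19 each.

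Of the promoters named in both lists, the strongest were Ttc23l and Slc25a17, a peroxisomal carrier gene, each with 44 siMyolinc tags and 13 control tags. Pop7, a ribonuclease P subunit gene, held 46 siMyolinc and 12 control tags, and Krt76, a keratin gene, 37 siMyolinc and 11 control tags. In these 4 the centres were 141 to 722 bp apart, so a promoter named in both lists need not be occupied at the same place. Over the 131 protein-coding genes, 16.8% (11.4% to 24.1%) had centres within 100 bp.

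Among those 22 promoters, Filip1, beside which Myolinc is transcribed, had centres 11 bp apart, 8 bp after its start in siMyolinc cells and 3 bp before it in control cells. The peak held 39 tags in siMyolinc cells (27.7 to 53.3) at chr9:79977837-79977911 and 7 in control cells (2.81 to 14.4) at chr9:79977770-79978000. Yipf6, a Golgi membrane protein gene whose window is printed above, held 34 siMyolinc and 11 control tags. Crk, a signalling adaptor gene, held 26 siMyolinc and 11 control tags, and Treh, the trehalase gene, 15 siMyolinc and 9 control tags. Chromatin genes in the set were Mbd3, a subunit of the NuRD complex (35 siMyolinc and 8 control tags, 2 bp apart), Cbx5, a heterochromatin protein 1 gene (23 siMyolinc and 8 control tags, 26 bp apart) and Dpf2, a BAF complex gene (20 siMyolinc and 6 control tags, 21 bp apart). Tob2, an antiproliferative gene, held 46 siMyolinc and 6 control tags with centres 1 bp apart. Pde3a went the other way, with 14 siMyolinc and 16 control tags. The medians of the whole lists were 24 siMyolinc and 8 control tags.

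Genes of muscle structure and contraction had a MyoD promoter peak in 12 of 68 cases in siMyolinc cells and in 2 of 68 in control cells. That is 17.6% of the list in the siMyolinc library, beside 11.2% of all protein-coding genes, and 2.94% in the control library, beside 4.01%. The number in both was 0, beside 0.598% of all protein-coding genes. At equal length the siMyolinc count was 8 of 68, 11.8% beside 6.20%. Tcap, whose product caps titin at the Z-disc, led with 55 siMyolinc tags at -613 bp. Myl4, an embryonic myosin light chain, held 41, Tnnt3, the fast skeletal troponin T, 38, Myom2, an M-band protein, 36, and Tmod1, which caps thin filaments, 33. The control library had no promoter peak at these 5 genes. Its own 2 were Tnnt1, the slow skeletal troponin T, with 12 control tags, and Flnc, filamin C of the Z-disc, with 6. With a peak anywhere within 10 kb of the start, 47 of 68 genes were named in the siMyolinc list (69.1% beside 56.2% of all protein-coding genes) and 30 of 68 in the control list (44.1% beside 39.6%). At equal length the siMyolinc count was 40 of 68, 58.8% beside 42.6%. High shares within 10 kb were not particular to muscle genes. In the siMyolinc list they were 81.7% for cell cycle, 78.1% for matrix and 70.8% for osteoblast and adipocyte genes. They were 61.2% for neuronal, 47.4% for ribosomal and 43.3% for hepatocyte genes. At equal length these 6 shares were 58.3%, 62.5%, 66.7%, 46.9%, 29.5% and 33.3%.

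Genes of excitation-contraction coupling and the neuromuscular junction had a promoter peak in 5 of 32 cases in siMyolinc cells (15.6% beside 11.2% of all protein-coding genes) and 2 of 32 in control cells (6.25% beside 4.01%). At equal length the siMyolinc count was 3 of 32, 9.38% beside 6.20%. Agrn, which clusters acetylcholine receptors, held 29 siMyolinc tags, Scn4a, the muscle sodium channel, 28, and Chrng, the embryonic receptor subunit, 20. Jph2, which joins the membrane systems of the triad, and Cacnb1, a calcium channel subunit, held 12 and 10 siMyolinc tags. In the control library the members were Hrc, a calcium-binding protein of the sarcoplasmic reticulum, with 11 tags, and Kcnj2, a potassium channel, with 7. No gene of the list was in both sets, beside 0.598% of all protein-coding genes. Muscle energy genes numbered 3 of 20 in the siMyolinc list, a share of 15% near the 11.2% of all genes, namely Cox6a2 and Cox8b, muscle subunits of cytochrome oxidase, and Ckm, with 31, 16 and 20 tags. The control list named 1 of 20, 5% beside 4.01%, the myoglobin gene Mb, with 8 tags.

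The list of myogenic regulators and partners had the largest share of siMyolinc promoter peaks of the 12 lists, 13 of 51 or 25.5% beside 11.2% of all protein-coding genes. The lists were chosen with earlier results of these data known, so their order is a description only. At equal length it had 10 of 51, 19.6% beside 6.20%. In the control list it was 1 of 51, 1.96% beside 4.01%. That gene was Filip1, the neighbour of Myolinc, which encodes a filamin-interacting protein and was also named after depletion. Srf, the serum response factor that activates actin genes, held 42 siMyolinc tags and Twist1, a helix-loop-helix protein that opposes MyoD, 38. Nfatc2 held 37 and Tcf12, which encodes an E protein partner of MyoD, 34. The other 8 promoters, those of Myocd, Pax3, Six4, Mef2d, Meis1, Eya4, Hes1 and Sox6, held 17 to 26 siMyolinc tags. Apart from Filip1, these promoters had no control peak. Such a lack was common, since 5.33% of protein-coding genes with a siMyolinc promoter peak also had a control promoter peak. Of all protein-coding genes, 0.598% had a promoter peak in both lists.

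Chromatin cofactors of MyoD had a promoter peak in 6 of 28 cases in siMyolinc cells (21.4% beside 11.2%) and 0 of 28 in control cells (beside 4.01%). At equal length the siMyolinc count was 3 of 28, 10.7% beside 6.20%. Taf3, a core promoter factor that serves MyoD in myotubes, held 31 siMyolinc tags and Ddx17, a helicase coactivator, 24. Smarcd3, the BAF60c subunit through which MyoD engages chromatin remodelling, held 10, and Mapk14, the p38 kinase that acts on it, 7. Fusion and adhesion genes numbered 2 of 23 in the siMyolinc list, 8.70% beside 11.2% of all protein-coding genes. These were the cadherin genes Cdh2 and Cdh15, with 41 and 22 tags. At equal length the count was still 2 of 23, 8.70% and then above the 6.20% of all protein-coding genes. The control list named 1 of 23 (4.35% beside 4.01%), the membrane-repair gene Dysf with 6 tags.

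Lists outside the muscle programme also had more promoter peaks in siMyolinc cells, hepatocyte genes excepted, with 12.5% to 15.6% of their genes beside 11.2% of all protein-coding genes. Their shares in the control library ran between 1.67% and 12.5%, beside 4.01%. Cell cycle and replication genes had 9 of 60 in the siMyolinc library, led by Fbxo5 with 57 tags and the helicase subunit gene Mcm5 with 36, and 1 of 60 in the control library, the mitotic kinase gene Aurkb with 11. Ribosomal protein genes had 12 of 78 in siMyolinc and 8 of 78 in control cells, with Rps23 and Rpl15 in both. At equal length their siMyolinc count was 7 of 78, 8.97% beside 6.20% of all protein-coding genes. Matrix and fibroblast genes had 5 of 32 in siMyolinc and 4 of 32 in control cells, with the collagen crosslinking gene Lox in both (19 siMyolinc and 15 control tags). Osteoblast and adipocyte genes had 3 of 24 in siMyolinc and 1 of 24 in control cells, and neuronal and synaptic genes 7 of 49 in siMyolinc and 3 of 49 in control cells. Hepatocyte genes were the list in the other direction, with 0 of 30 in siMyolinc cells and 2 of 30 in control cells, namely Serpina1a and Foxa2.

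**Figure D5:**
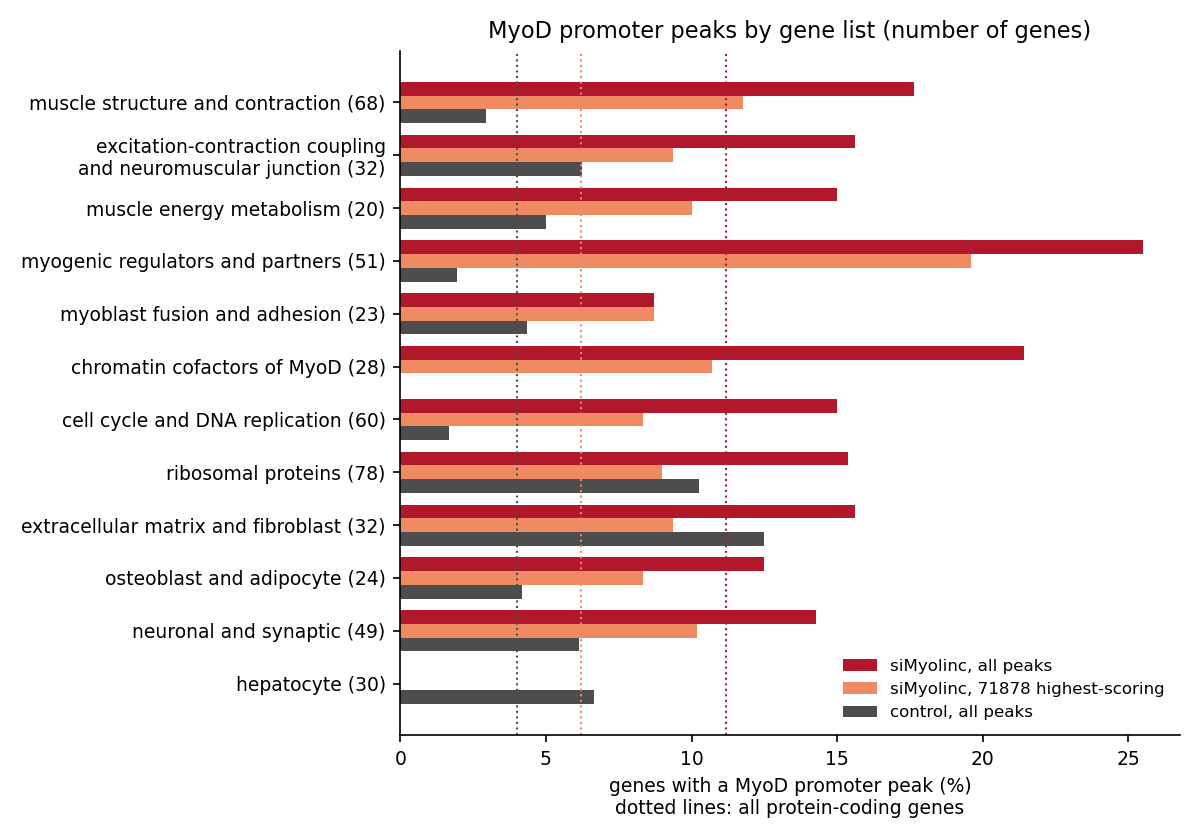
Share of the genes of each list with a MyoD promoter peak (percent, horizontal axis) for all siMyolinc peaks, the 71878 highest-scoring siMyolinc peaks and all control peaks, with the number of genes of each list in brackets and dotted lines at the shares of all protein-coding genes (11.2%, 6.20% and 4.01%). Myogenic regulators reach 25.5% in the siMyolinc library, and ribosomal and matrix genes are the lists in which the control bar exceeds the siMyolinc bar at equal length, together with hepatocyte genes.

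At the genes of the MyoD family themselves, no peak of either library lay in a promoter. Myod1 had 6 siMyolinc peaks and 3 control peaks for which it was the nearest gene, the nearest of them at -9956 bp with 47 siMyolinc tags and at -29484 bp with 13 control tags. Myog, the gene of Myogenin, had 5 siMyolinc peaks and 1 control peak, the nearest at -4273 bp with 35 siMyolinc tags and at -8091 bp with 8 control tags. Myf5, which acts beside Myod1 in myoblasts, had 4 siMyolinc and 2 control peaks. Its siMyolinc peaks lay at -1903 bp with 13 tags and at 3774 bp with 49 tags, among others, and its nearest control peak lay 91516 bp away. Myf6, the late family member, had 1 siMyolinc and 4 control peaks. Here the control peak was the nearer, at -17962 bp with 11 control tags, against -89843 bp with 26 siMyolinc tags.

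At 5 muscle genes of the 11 set genes the peak nearest the start belonged to the siMyolinc library. That was so for 64.6% of the 17990 protein-coding genes with a peak. Myod1, Myog and Myf5 went the same way, and Myf6 and Filip1 the other way. At Filip1 the nearest control peak lay 3 bp from the start and the nearest siMyolinc peak 8 bp. Of the 5 muscle genes, Cdkn1a and Chrna1 had no control peak. Ckm had a siMyolinc promoter peak of 20 tags at -62 bp, which the control library lacked, besides the common site in intron 1. Acta1, skeletal alpha-actin, had a siMyolinc peak of 37 tags in intron 1 at 524 bp, and its 1 control peak, of 9 tags, lay at -6562 bp. Cdkn1a, the inhibitor that takes myoblasts out of the cell cycle, had 1 siMyolinc peak of 34 tags in intron 1 at 3684 bp and 0 control peaks. Chrna1, the acetylcholine receptor alpha subunit gene, had 2 siMyolinc peaks of 28 tags each, at -1548 bp and in exon 7, and 0 control peaks. Des, the desmin gene, had 2 siMyolinc peaks, the nearer at -1653 bp with 23 tags, and 1 control peak at 5248 bp with 9 tags. Tardbp, which encodes TDP-43, had 0 peaks in both lists. Outside the intron 1 site of Ckm and the promoter of Filip1, none of the peaks of these 11 genes was matched within 100 bp in the other library.

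The E-box core CAGCTG was about as frequent in promoters with a MyoD peak as in promoters at large, and the looser CANNTG was less frequent. CAGCTG occurred in 17.2% of 2826 RefSeq windows of genes with a siMyolinc promoter peak and in 15.7% of 1012 windows of genes with a control promoter peak. The difference of 1.45 percentage points had an interval (-1.28 to 4.0) that included 0, and 16.3% of all 32851 windows held the word. CANNTG occurred in 66.3% of siMyolinc windows (64.6% to 68.1%) and 68.7% of control windows (65.8% to 71.5%), and in 72.3% of all windows (71.8% to 72.8%). Windows with a peak were richer in G and C, 60.0% in the siMyolinc list and 57.5% in the control list, than all windows at 53.8%. Closer to the peaks, CAGCTG lay within 50 bp of 6.63% (5.14% to 8.51%) of 845 siMyolinc centres inside a window and 6.05% (3.70% to 9.74%) of 248 control centres, and within 50 bp of 5.62% of all window positions. CANNTG lay within 50 bp of 33.1% of these siMyolinc centres, 37.5% of control centres and 35.8% of positions. Peaks outside promoter windows were not searched, since no genome of the build was used here.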

How the data were processed

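Each library was deposited as a list of peaks that the authors called against IgG and annotated with HOMER (named in the submitters' processing notes) on mm10. The aligner, caller settings and versions were not given in the sources used here. Each peak carries, per the file headers, a peak score made by the authors and a focus ratio, a deposited fraction between 0 and 1 that no result uses. The deposited lists held 109541 siMyolinc and 71884 control peaks, of which 19 siMyolinc and 6 control peaks on the mitochondrial genome were left out.

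Scores divided by the step of each list gave whole tags within a rounding tolerance of 0.05 for 100% of scores, the 1% highest set aside. A centre is the middle of a peak, and centres within 100 bp count as the same site. Equal length means the 71878 highest-scoring peaks. Intervals are at 95% and cover counting error only. With 1 library per condition no test was run. Genes were matched by identifier to the GRCm38.p6 table (GRCm38 is the assembly also called mm10), where 20846 of 20900 were found. Scripts ran in Python 3.11.15 with pandas 2.3.3, numpy 2.4.6, SciPy 1.17.1 and matplotlib 3.10.9, and were tested on simulated lists.

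The text names 11 set genes, the 8 leading promoters of each set, up to 5 leading members per list and library, and the leading sites outside repeats. Other genes named were chosen after their values were seen. The members and the 12 gene lists were chosen with earlier results of these data known. Without a genome, E-boxes were searched in RefSeq promoter windows. Alternatives were equal length, the median score, other distances, repeats, merging of neighbours, promoter definitions and the motif.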

Additional observations from a re-analysis of the deposited data

How the results depend on the processing

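Differences are siMyolinc minus control in percentage points. The exon difference (1.83) kept its direction in every alternative and moved to 3.3 among the 1000 highest-scoring peaks alone. The intergenic difference (-4.48) was -3.66 among the 10000 highest-scoring peaks. The intron difference (0.681) was 1.27 at equal length and 1.2 among the 1000 highest. The promoter difference (1.26) was 0.793 at equal length, 0.624 at or above the median score, 0.28 among the 10000 highest and -0.1, reversed, among the 1000 highest. The CpG island difference (0.594) was 0.245, 0.175, 0.01 and 0.3 in these settings, and that within 1 kb of a start (2.37) was 1.47, 1.25, 0.82 and 0.5. Counting neighbours within 500 bp once moved no share beyond its interval.

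The share of control centres met (1.20%) was 0.807% at equal length, 0.629% above the median score and 0.22% among the 10000 highest. It was 0.547%, 2.31% and 5.38% with 50, 200 and 500 bp, and 1.77% by overlap of intervals. The ratio of promoter genes (2.71) was 1.52 at equal length, 1.76 above the median score and 1.64 within 5000 bp. The share of control promoter genes in both lists (14.0%) was 8.17%, 6.56%, 23.4% within 1000 bp and 50.7% within 5000 bp. The muscle list difference (10 genes) was 6 at equal length and 16 within 1000 bp and within 5000 bp. The E-box difference (1.45) was -2.33 for CANNTG, and its interval included 0. The cause of these shifts was not tested. The settings by number of highest-scoring peaks were chosen after seeing the data.

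No paired analysis was possible because each MyoD condition was 1 library, and for the same reason no replicate could be left out. Peaks of 4 to 16 tags carry wide counting intervals, and the lists show no site below the calling threshold, so a site missing from a list may still be occupied.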

Other observations

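The strongest peaks outside repeats lay at different places in both libraries. In siMyolinc cells they were an intronic peak named for Pisd-ps1 (107 tags), one named for Cryl1 (104) and peaks at Gtpbp4, at Pthlh, the parathyroid hormone-like hormone gene, and in an exon named for Lrp2bp (98 each). In control cells they were an intronic peak at Kctd16 (80 tags), intergenic peaks named for Gm6194 (79) and Meis1 (36), a 3' UTR peak named for Limd1 (58) and an intronic peak named for 4931408D14Rik (31). The Gm6194 centre lay 115 bp from a siMyolinc centre, and the other 9 lay 821 to 31140 bp from the nearest centre of the other list. Whether lists of other antibodies had a peak at these places was not examined.

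Lrrc4c, a synaptic adhesion gene, was the nearest gene of 104 siMyolinc and 59 control peaks, and the cadherin genes Cdh8 and Cdh9 of 76 siMyolinc peaks each and of 70 and 69 control peaks. Over 21900 protein-coding genes, the number of peaks per gene in siMyolinc cells followed that in control cells with a Spearman rho of 0.71. Each number also followed gene length (rho 0.49 in siMyolinc and 0.48 in control cells). Genes are not independent replicates. The X chromosome held 4.04% of siMyolinc and 4.62% of control peaks over whole lists, and 3.58% of siMyolinc and 2.80% of control peaks among the 10000 highest-scoring of each list.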
